A study of Mus musculus with 208 samples.

Results

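Sorted neuronal nuclei of the hippocampus were compared with those of the prefrontal cortex (PFC) in the control animals of a mouse study of perinatal morphine and adult immune challenge. The comparison held 23 of the 208 samples of the series, 13 hippocampal and 10 PFC libraries, and a gene was included when its mean over both groups was at least 1 CPM (the count scaled to the library total), which kept 14040 of 46403 genes. No library was left out for depth, since none had a total below the limit of 0.5 times the median of its file. Every animal was a C57BL/6NTac mouse born to a dam with a saline minipump, fostered to a drug-naive surrogate, injected with saline from postnatal day 1 to 14 and given saline again as an adult, 2 h before tissue was taken, so that neither group saw morphine or lipopolysaccharide (SAL–SAL). The hippocampal libraries came from 6 females and 7 males of 7 litters, and the PFC libraries from 6 females and 4 males of 6 litters. Both regions were taken as bilateral tissue punches, and about 5000 nuclei with the neuronal protein NeuN were sorted per animal and region for RNA-seq. Each library was 1 region of 1 animal, named here by litter and individual number as the study's sample table numbers them, and 8 numbers, taken as the same animals, occur in both regions.

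The hippocampus and the neocortex are built from related excitatory neurons that differ in position and wiring. The dentate gyrus of the hippocampus holds granule cells, which keep the transcription factor Prox1 throughout life, and the CA fields hold pyramidal cells. The PFC is layered: upper layers project within the cortex, layer 5 neurons project to subcortical targets and layer 6 neurons project mainly to the thalamus. Both regions also hold GABAergic interneurons marked by somatostatin, parvalbumin or other proteins. Medium spiny neurons are GABAergic projection cells of the striatum, which lies beneath the frontal cortex, and are not a cell type of either region.

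Totals were 6036905 to 22488625 counts in the hippocampus (median 9751759) and 6605680 to 13784531 in the PFC (median 9543410), and all values below are CPM after TMM scaling (normalized CPM). The summed level of Y-linked genes matched the labelled sex in all 23 libraries, at 114.3 or more in males and at 7.93 or less in females. Among females, PFC 10-3 (7.93) and 9-4 (5.58) stood above the others, which reached 0.887 at most. Xist, an RNA of female cells, was at 0 in every library of both sexes and gave no check. Rows that carry ribosomal RNA took 2.87 to 9.03% of a hippocampal library and 4.65 to 39% of a PFC library, the highest being PFC 10-3. By the study's methods the tissues were put in random order before they were processed. The labels give no preparation or sequencing batch, and its part in the differences was not tested. PFC 1-3 and PFC 3-0 were far closer to each other than any other pair (correlation of log values 0.9897, the next PFC pair 0.931), with a chi-square of 3.456 per gene against 1 for repeat sampling (the next PFC pair 42.43, median 166.2). This check covers counting error only and does not tell whether both came from separate tissue. They were kept as separate libraries because the labels name them as such, and with both summed into 1 library 1850 genes were called in the comparison below, against 1832.

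The markers of each region were present, yet not in equal amounts in every library. Summed over the 10 dentate granule cell markers, the hippocampal libraries ranged from 271 to 4257 (median 1869.7) and the PFC libraries from 248 to 471 (median 339). Hippocampus 1-1 and 9-0 were inside the PFC range, at 270.7 and 301.4, and hippocampus 5-3 was just above it at 484.6. Summed over the cortical projection factors, the PFC libraries ranged from 402 to 1816 (median 1421), and PFC 4-1, 4-3, 5-1 and 9-0 stood apart at 489.7, 536.3, 402.4 and 744.9, with the other 6 libraries at 1412 to 1817. The striatal controls of the same study ranged from 377 to 1596 (median 462). The hippocampal libraries ranged from 793 to 2210 (median 1497), so this list does not tell the PFC from the hippocampus.

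The 13 markers of striatal medium spiny neurons went the other way. Their sum was 1845 to 12359.7 (median 4053) in the PFC, 510.3 to 5406 (median 703) in the hippocampus and 895 to 9858 (median 4214) in the striatal controls. The 2 lowest striatal libraries, striatum 3-2 and 3-4 at 894.5 and 1004, also held the highest summed projection factors of the striatal controls, 1343 and 1596, against 377 to 689 in the other 11. PFC 4-1, 4-3, 5-1 and 9-0 held 7105, 6985, 12360 and 8157 and the other 6 PFC libraries 1845 to 4822. Hippocampus 5-3 held 5406, and the next highest hippocampal library 1044. Slc17a7, the vesicular glutamate transporter of cortical excitatory neurons, was at 0.807, 52.6, 1.38 and 81.6 in those 4 PFC libraries and at 120 to 630 in the other 6. In 4 of the 10 PFC libraries the projection neuron and striatal markers thus go against the label. In the other 6 the striatal marker sum also lay above every hippocampal library but 5-3, and inside the striatal range. Leaving out the 4 therefore does not remove these markers. The part of striatal nuclei in the PFC differences was not tested. Across log values, the mean correlation was higher with the own region than with the other in all 13 hippocampal and in 6 of the 10 PFC libraries, and not in PFC 10-1, 9-4, 1-3 and 3-0 (0.858 against 0.88 in PFC 3-0). The single nearest library came from the own region in 12 of 13 and 10 of 10, the exception being hippocampus 1-1, nearest to PFC 1-3 (0.882). Many results are also given without PFC 4-1, 4-3, 5-1 and 9-0, called the 4 PFC libraries from here on, where that ended a call or moved its size. The fit that also left out hippocampus 1-1, 5-3 and 9-0 is given as a count of genes called. Among the genes that could be named, that fit ended 8 calls and added 4. The 4 PFC libraries were set apart by their projection factor and striatal marker sums, so the way such genes move without them is fixed by that choice.

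Of other cell types, PFC 9-4 stood apart with summed oligodendrocyte markers of 5030 (all 23 libraries 147.1 to 5030) and microglial markers of 305.4. Summed thalamic markers were at 101.9 to 2067 (median 583.2) in the hippocampus and at 43.15 to 230.8 (median 107.9) in the PFC. In bulk libraries, fewer nuclei of a type and less RNA per nucleus cannot be told apart.

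**Figure D1:**
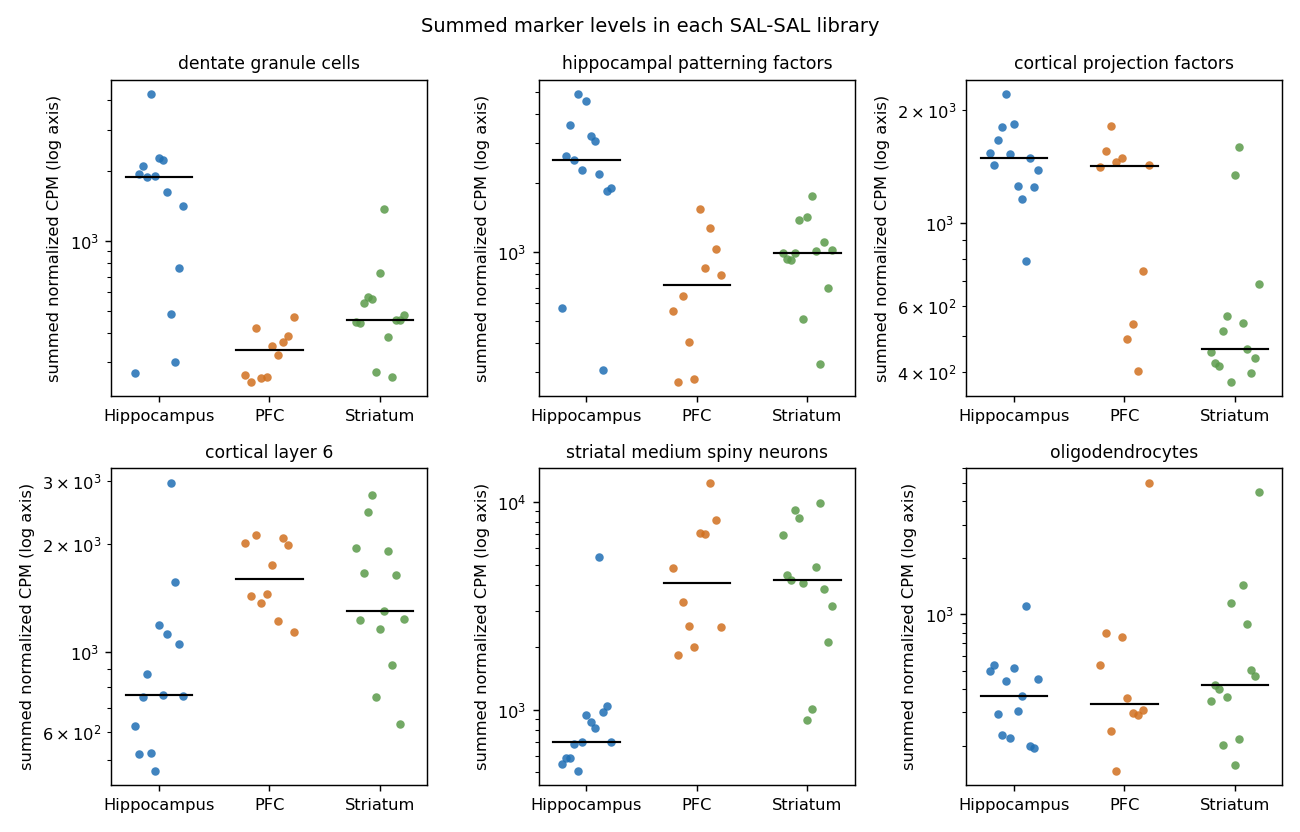
Summed normalized CPM of 6 marker lists (log axis) in each SAL–SAL library of hippocampus, PFC and striatum, 1 point per library with a black line at the median. The PFC points of the striatal medium spiny neuron panel reach from 1845 to 12360 and those of the cortical projection factors split into 4 low and 6 high libraries.

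Between the regions, 1832 genes were called at an adjusted p under 0.05 (edgeR quasi-likelihood test with sex as a covariate, Benjamini-Hochberg adjustment over 14040 genes). Of the genes tested, 4.86% (683) were higher in the hippocampus and 8.18% (1149) higher in the PFC. All SAL–SAL counts of list members below stand against these shares. With a difference of at least 2-fold as well, 2.54% (357) were higher in the hippocampus and 5% (702) in the PFC. The median log2FC (hippocampus over PFC) across all genes was 0.0188. Scaling by library totals alone moved that median to 0.223 and turned the split around, to 976 higher in the hippocampus and 536 in the PFC, so the balance of both directions rests on the scaling. With the animal as a block, which used the 16 libraries of the 8 animals with both regions, 573 genes were called, 193 higher in the hippocampus and 380 in the PFC. All of PFC 4-1, 4-3, 5-1 and 9-0 are among the 8 PFC libraries of that fit, so it does not set them aside. Without the 4 PFC libraries that stood apart, the counts were 613 and 794. In 29 genes, 0.207% of those tested, no library of either region overlapped the range of the other.

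**Figure D2:**
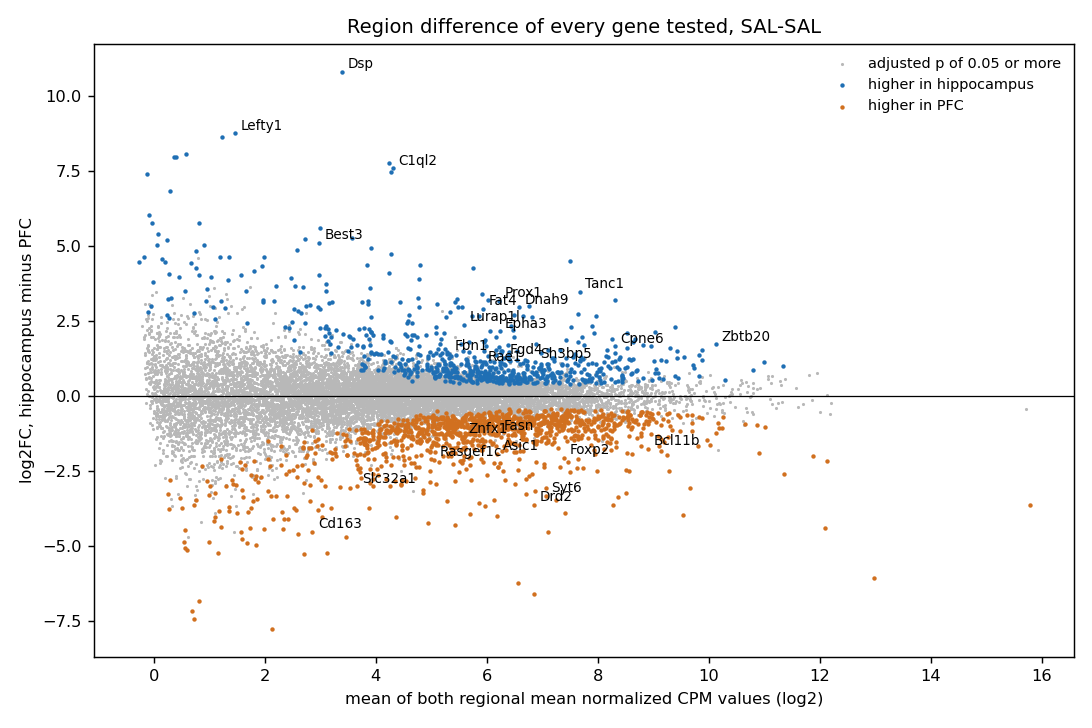
Region difference of each of 14040 genes (y axis, log2FC of hippocampus over PFC) against its mean level (x axis, log2 of normalized CPM). Grey points are genes not called, and the 683 blue and 1149 orange points are genes higher in the hippocampus and in the PFC.

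Dentate granule cell markers were higher in the hippocampus: 9 of 10 were called in that direction (background 4.86%), with a median log2FC of 3.83. Prox1, the homeobox factor that sets granule cell identity, ranged from 15.1 to 342 (median 162) in hippocampus and from 1.18 to 48.2 (median 11.8) in PFC (log2FC 3.17 ± 0.53 (SE), adjusted p = 2.63e-04). The libraries overlapped in the hippocampal samples 9-0, 1-1, 9-2 and 5-3, which lay below the highest PFC library. Glis3, a Krüppel-like zinc finger factor, ranged from 20.2 to 1172 (median 331) in hippocampus and from 5.30 to 50.4 (median 10.7) in PFC (log2FC 4.50 ± 0.61 (SE), adjusted p = 2.73e-05). C1ql2, a secreted C1q-like protein of mossy fibre synapses, ranged from 0.159 to 86.0 (median 44.1) in hippocampus and from 0 to 1.49 (median 0) in PFC (log2FC 7.58 ± 0.90 (SE), adjusted p = 8.53e-06), and it was at 0 in most PFC libraries. Dsp, the desmosomal protein desmoplakin, ranged from 0 to 52.8 (median 21.6) in the hippocampus and was at 0 in all 10 PFC libraries, at least 665-fold higher on the mean against a floor of 3 counts over the PFC group (adjusted p = 1.04e-04), so that it passed the filter on low values through the hippocampus alone. Lct, which encodes lactase and is used as a granule cell marker, ranged from 0.319 to 99.7 (median 43.0) in hippocampus and from 0 to 0.738 (median 0) in PFC (log2FC 7.46 ± 0.87 (SE), adjusted p = 6.59e-06). Like Dsp, C1ql2 and Lct passed the filter through the hippocampus alone. All 8 animals with both regions had the higher value of Prox1, Glis3 and C1ql2 in the hippocampus. Plk5, the member not called, ranged from 5.26 to 57.5 (median 22.9) and from 6.51 to 67.5 (median 11.8), and it was higher in the hippocampus without the 4 PFC libraries (log2FC 1.52, adjusted p = 0.0471). With the animal as a block, Stxbp6 (adjusted p = 0.065) and Tdo2 (0.0586) lost the call.

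In a list of hippocampal patterning genes, 4 of 6 members tested were higher in the hippocampus (background 4.86%), with a median log2FC of 2.61. With library totals alone as the scaling or with DESeq2 it was 6 of 6. The 4 were Zbtb20, Lef1, the receptor Nr3c2 and Prox1, which the granule cell list above also counts, and Lhx2 and Lhx9 were not called. Zbtb20, a zinc finger repressor needed for CA1 specification, ranged from 66.0 to 3501 (median 1604) in hippocampus and from 136 to 1205 (median 460.4) in PFC (log2FC 1.71 ± 0.46 (SE), adjusted p = 0.0128). Hippocampus 9-0 held the lowest value, 66.0, and with the animal as a block the call was lost (log2FC 1.18, adjusted p = 0.293). Nr3c2, the mineralocorticoid receptor, ranged from 199 to 1137 (median 682) in hippocampus and from 114 to 331 (median 212) in PFC (log2FC 1.70 ± 0.28 (SE), adjusted p = 1.97e-04), and 7 of the 8 animals had the higher value in the hippocampus. Lef1, a nuclear effector of Wnt signalling that is also a thalamic gene, ranged from 0 to 143 (median 13.8) in hippocampus and from 0 to 0.629 (median 0) in PFC (log2FC 7.75 ± 1.25 (SE), adjusted p = 1.95e-04), and it passed the filter on low values through the hippocampus alone.

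Of 8 CA1 pyramidal cell markers 2 were higher in the hippocampus (background 4.86%), and 4 with library totals alone as the scaling or with DESeq2. Of 10 CA2 and CA3 markers 1 was higher in the hippocampus and 2 in the PFC (background 8.18%). Ndst4, a heparan sulfate sulfotransferase, ranged from 15.5 to 111 (median 55.2) in hippocampus and from 2.84 to 38.2 (median 12.8) in PFC (log2FC 2.10 ± 0.42 (SE), adjusted p = 0.00144). Fibcd1, a CA1 marker with a fibrinogen-like domain, ranged from 2.07 to 144 (median 43.1) and from 5.53 to 41.0 (median 8.08) (log2FC 2.08 ± 0.46 (SE), adjusted p = 0.00316), and lost the call with the animal as a block (adjusted p = 0.144). Iyd, an iodotyrosine deiodinase, ranged from 0.59 to 18.5 (median 7.93) in hippocampus and from 0 to 1.41 (median 0) in PFC (log2FC 4.33 ± 0.86 (SE), adjusted p = 0.00132), and it passed the filter on low values through the hippocampus alone. The members higher in the PFC were Pcp4 and Necab2, both calcium signalling proteins that the striatum also makes. Without the 4 PFC libraries Pcp4 had an adjusted p of 0.0595 and Necab2 a log2FC of -0.09 (adjusted p = 0.903).

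Thalamic markers, from the tissue below the hippocampus, were higher in the hippocampal libraries in 5 of 7 members, with a median log2FC of 2.84. Slc17a6, the vesicular glutamate transporter of thalamic neurons, ranged from 3.16 to 62.8 (median 14.6) in hippocampus and from 0 to 10.9 (median 2.48) in PFC (log2FC 3.14 ± 0.75 (SE), adjusted p = 0.00554). Ntng1, a netrin-like membrane protein of thalamocortical axons, ranged from 78.3 to 959 (median 373) in hippocampus and from 22.3 to 112 (median 61.1) in PFC (log2FC 2.66 ± 0.33 (SE), adjusted p = 1.12e-05). Tcf7l2 lost the call without the 4 PFC libraries (adjusted p = 0.0893) and with the animal as a block (0.491), as did Plekhg1 (0.0895 and 0.123). Ttr, the choroid plexus transthyretin, ranged from 0.64 to 141 (median 7.22) in the hippocampus and from 0 to 8.46 (median 0) in the PFC (log2FC 5.26 ± 1.31 (SE), adjusted p = 0.00767). The part of thalamic or choroid plexus RNA in the hippocampal values was not tested.

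Among genes that differed at least 2-fold and whose libraries did not overlap between regions, 12 of the hippocampal direction were taken by their adjusted p. That the libraries do not overlap is how these genes were picked and adds nothing to their tests. Tanc1, a scaffold protein of the postsynaptic density (chromosome 2, 59612042 to 59846149, plus strand, GRCm38), ranged from 70.7 to 603 (median 362) in hippocampus and from 12.9 to 69.0 (median 31.8) in PFC (log2FC 3.46 ± 0.35 (SE), adjusted p = 1.76e-06). Its lowest hippocampal value, 70.7, was just above the highest PFC value, 69.0. Cpne6, a calcium-dependent phospholipid-binding copine of dendritic spines, ranged from 227 to 664 (median 544) in hippocampus and from 92.7 to 198 (median 150.3) in PFC (log2FC 1.65 ± 0.19 (SE), adjusted p = 5.53e-06). Dnah9, a heavy chain of the axonemal dynein motor, ranged from 42.4 to 315 (median 158) in hippocampus and from 9.69 to 35.2 (median 22.1) in PFC (log2FC 2.96 ± 0.34 (SE), adjusted p = 6.59e-06). Lurap1l was at 36.3 to 133 (median 77.7) in the hippocampus and at 3.57 to 27.5 (median 16.6) in the PFC (log2FC 2.37 ± 0.26 (SE), adjusted p = 5.53e-06).

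Epha3, a receptor for ephrin-A ligands, ranged from 60.6 to 198 (median 118) in hippocampus and from 9.12 to 52.7 (median 27.4) in PFC (log2FC 2.15 ± 0.26 (SE), adjusted p = 9.28e-06). Fat4, a giant atypical cadherin of planar cell polarity, ranged from 24.7 to 212 (median 113) in hippocampus and from 0 to 23.6 (median 15.5) in PFC (log2FC 2.91 ± 0.45 (SE), adjusted p = 1.32e-04). Fbn1, the microfibril protein fibrillin, was at 41.7 to 90.7 (median 51.2) and at 4.84 to 41.6 (median 22.7) (log2FC 1.40 ± 0.24 (SE), adjusted p = 3.07e-04), with the ranges barely apart. Best3, a member of the bestrophin anion channel family, ranged from 1.12 to 50.02 (median 13.2) in hippocampus and from 0 to 1.10 (median 0.342) in PFC (log2FC 5.09 ± 0.67 (SE), adjusted p = 2.08e-05). Its PFC mean was 0.389, so that it passed the filter on low values through the hippocampus alone. Lefty1, a secreted inhibitor of Nodal signalling (chromosome 1, 180935022 to 180938400), ranged from 0.319 to 16.7 (median 4.37) in the hippocampus and was at 0 in all 10 PFC libraries, at least 175-fold higher against the same floor (adjusted p = 2.48e-05), and it too passed the filter through the hippocampus alone.

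The remaining members of the 12 differed by less. Fgd4, an exchange factor for the GTPase Cdc42, ranged from 72.0 to 139.7 (median 114) in hippocampus and from 27.0 to 70.8 (median 45.8) in PFC (log2FC 1.27 ± 0.17 (SE), adjusted p = 3.58e-05). Rae1, a nuclear mRNA export factor, ranged from 57.9 to 98.6 (median 79.7) in hippocampus and from 27.5 to 54.0 (median 42.2) in PFC (log2FC 1.03 ± 0.14 (SE), adjusted p = 3.59e-05). Sh3bp5, an exchange factor for Rab11, ranged from 98.2 to 216 (median 164) in hippocampus and from 15.3 to 88.4 (median 80.2) in PFC (log2FC 1.15 ± 0.21 (SE), adjusted p = 6.15e-04), and it overlaps Capn7 on the opposite strand, so that without a stated strand setting the reads of both cannot be told apart.

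**Figure D3:**
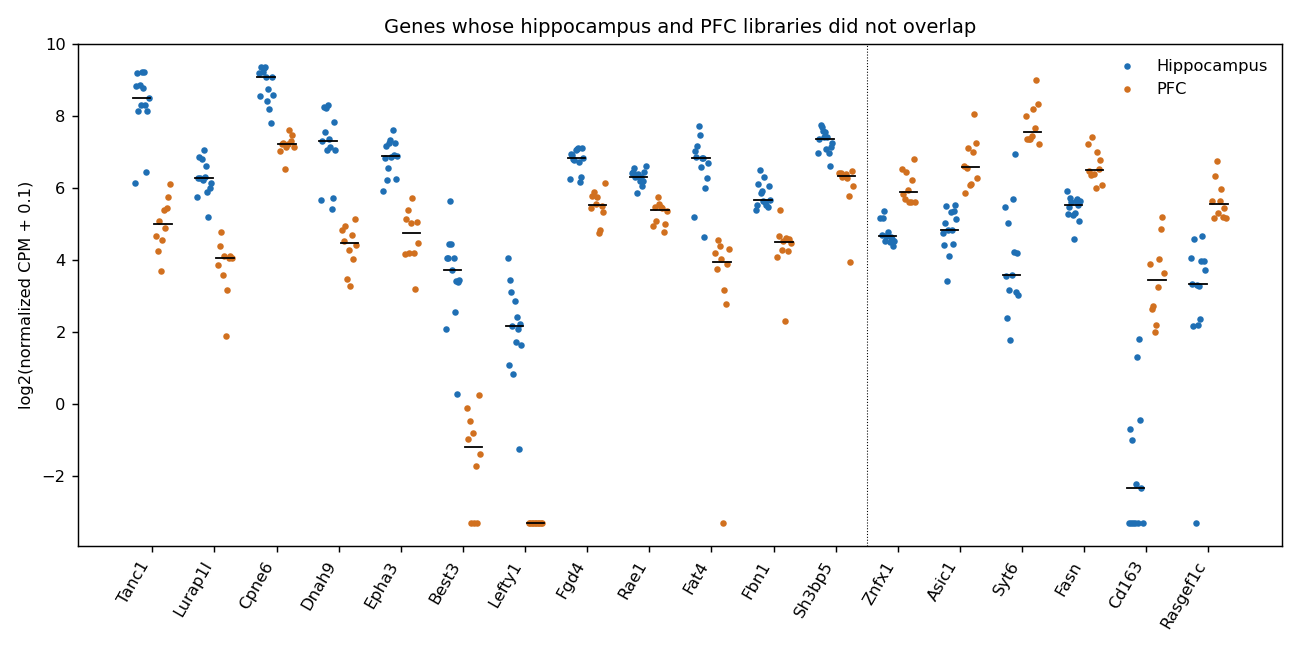
Level in every library, as log2 of normalized CPM plus 0.1, of the 12 genes named higher in the hippocampus (left of the dotted line) and the 6 higher in the PFC (right), with a black line at each median. For each gene the blue hippocampal points and orange PFC points do not overlap, which is how the genes were picked.

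In the PFC direction, 6 genes met the same conditions. Syt6, a synaptotagmin of layer 6 corticothalamic neurons (chromosome 3, 103575231 to 103645569, plus strand), ranged from 3.33 to 124 (median 11.8) in hippocampus and from 149 to 512 (median 189) in PFC (log2FC -3.32 ± 0.47 (SE), adjusted p = 4.82e-05). Hippocampus 5-3 held the highest hippocampal value, 124, and PFC 5-1 the highest PFC value. Asic1, a proton-gated cation channel, ranged from 10.6 to 45.9 (median 28.7) in hippocampus and from 57.7 to 269.6 (median 95.8) in PFC (log2FC -1.92 ± 0.26 (SE), adjusted p = 2.48e-05). Fasn, the fatty acid synthase, ranged from 23.8 to 60.4 (median 45.7) in hippocampus and from 63.8 to 171 (median 90.5) in PFC (log2FC -1.26 ± 0.18 (SE), adjusted p = 4.82e-05). Znfx1, a helicase-like zinc finger protein of antiviral defence that overlaps Zfas1 on the opposite strand, ranged from 21.0 to 41.2 (median 25.2) in hippocampus and from 48.5 to 112 (median 59.3) in PFC (log2FC -1.36 ± 0.18 (SE), adjusted p = 2.08e-05). Cd163, the haemoglobin scavenger receptor of macrophages, ranged from 0 to 3.37 (median 0.0984) in hippocampus and from 3.87 to 36.7 (median 10.9) in PFC (log2FC -4.52 ± 0.89 (SE), adjusted p = 0.00111), at levels of few counts in the hippocampus. Its hippocampal mean was 0.576, so that it passed the filter on low values through the PFC alone. Rasgef1c, a Ras exchange factor, ranged from 0 to 25.2 (median 9.90) in hippocampus and from 35.6 to 108 (median 46.9) in PFC (log2FC -2.12 ± 0.43 (SE), adjusted p = 0.00162). Each of the 18 genes of both directions was also called with the animal as a block and without the 4 PFC libraries.

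Of the layer 6 markers, 3 of 9 were called higher in the PFC (background 8.18%), with a median log2FC of -0.76. Foxp2, a forkhead factor of deep-layer neurons that medium spiny neurons also make, ranged from 3.61 to 282 (median 47.6) in hippocampus and from 107 to 528 (median 234) in PFC (log2FC -2.06 ± 0.44 (SE), adjusted p = 0.00243). Tle4, a corepressor of corticothalamic neurons, ranged from 72.7 to 132 (median 98.8) in hippocampus and from 103 to 197 (median 157) in PFC (log2FC -0.65 ± 0.14 (SE), adjusted p = 0.00241), and with the animal as a block it lost the call (adjusted p = 0.138). With library totals alone as the scaling, 2 of the 9 were called.

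Layer 5 markers were higher in the PFC in 5 of 12 members and layer 2 to 4 markers in 2 of 11, with 1 layer 2 to 4 member higher in the hippocampus. With library totals alone as the scaling, 2 of the 12 layer 5 markers were higher in the PFC, and of the layer 2 to 4 markers 0 were higher in the PFC and 3 in the hippocampus. Bcl11b, a zinc finger factor of subcortically projecting and of medium spiny neurons, ranged from 111 to 459 (median 202) in hippocampus and from 184 to 2803 (median 590.1) in PFC (log2FC -1.77 ± 0.35 (SE), adjusted p = 0.00115). Its highest value was in PFC 5-1, and without the 4 PFC libraries the adjusted p was 0.0624 (log2FC -0.91). Sulf1, an extracellular sulfatase, ranged from 0 to 59.3 (median 9.89) in hippocampus and from 4.82 to 127 (median 92.8) in PFC (log2FC -2.05 ± 0.58 (SE), adjusted p = 0.0185). Otof, a layer 2 to 4 member, had an adjusted p of 0.023 with all libraries and 0.41 without the 4, and Pou3f2 0.0156 and 0.0578. Mdga1, the member higher in the hippocampus, lost its call with the animal as a block (0.123).

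Slc17a7 and Tbr1, genes of cortical excitatory neurons, were called in neither direction. Slc17a7 ranged from 55.3 to 251 (median 146) in the hippocampus and from 0.807 to 629.7 (median 169.9) in the PFC (log2FC -0.60 ± 0.56 (SE), adjusted p = 0.538). Of the 8 animals with both regions, 5 had the higher value in the hippocampus, and with the animal as a block its log2FC was 0.73 (adjusted p = 0.672). The block holds PFC 4-1, 4-3, 5-1 and 9-0, where Slc17a7 was low. Tbr1, a T-box factor of deep-layer neurons, had a log2FC of -1.32 (adjusted p = 0.195) with all libraries and 0.13 (0.951) with the block. The sign of both genes differed between these fits.

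The genes of GABAergic interneurons were higher in the PFC in 8 of 22 members (background 8.18%) and higher in the hippocampus in 1 (background 4.86%), with a median log2FC of -0.63. Slc32a1, the vesicular GABA transporter, ranged from 0.222 to 9.87 (median 2.75) in hippocampus and from 4.98 to 46.0 (median 14.5) in PFC (log2FC -3.002 ± 0.51 (SE), adjusted p = 2.80e-04). Sst, the somatostatin peptide, ranged from 3.68 to 125 (median 12.4) in hippocampus and from 17.5 to 148 (median 57.4) in PFC (log2FC -2.14 ± 0.51 (SE), adjusted p = 0.00587). Reln, the extracellular glycoprotein reelin, ranged from 28.0 to 137 (median 67.7) in hippocampus and from 107 to 414 (median 173) in PFC (log2FC -1.53 ± 0.27 (SE), adjusted p = 4.00e-04). All 8 animals with both regions had more Slc32a1 and Sst in the PFC. Gad2, a GABA-synthesizing enzyme, ranged from 38.5 to 184 (median 65.0) in hippocampus and from 46.1 to 528 (median 135) in PFC (log2FC -1.25 ± 0.33 (SE), adjusted p = 0.0117), and without the 4 PFC libraries its log2FC was -0.43 (adjusted p = 0.359). Npy had an adjusted p of 0.00554, and 0.0779 with the animal as a block. Pvalb, at 1.05 to 27.3 (median 3.77) and 0.115 to 15.7 (median 6.53) (adjusted p = 0.73), and Vip, at 0 to 37.5 (median 13.7) and 0 to 31.1 (median 9.62) (adjusted p = 0.759), were not called. Adarb2, an RNA-binding protein of caudally derived interneurons, was the member higher in the hippocampus (log2FC 1.28 ± 0.35 (SE), adjusted p = 0.0147), and its adjusted p was 0.0561 without the 4 PFC libraries and 0.204 with the animal as a block.

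Of the 13 medium spiny neuron markers, 12 were called higher in the PFC, with a median log2FC of -3.38, the widest difference of any marker list in that direction. Drd1, the D1 dopamine receptor of the direct pathway, ranged from 1.45 to 29.9 (median 2.45) in hippocampus and from 9.40 to 126 (median 32.9) in PFC (log2FC -3.24 ± 0.53 (SE), adjusted p = 2.11e-04). Drd2, the D2 receptor of the indirect pathway, ranged from 0 to 319 (median 5.38) in hippocampus and from 33.6 to 519.5 (median 149) in PFC (log2FC -3.62 ± 0.99 (SE), adjusted p = 0.0146), and hippocampus 5-3 alone reached 319. Ppp1r1b, the phosphatase inhibitor DARPP-32, ranged from 0.315 to 61.1 (median 3.35) in hippocampus and from 10.7 to 271 (median 73.9) in PFC (log2FC -3.93 ± 0.72 (SE), adjusted p = 5.92e-04). Penk, the enkephalin precursor, ranged from 9.12 to 504 (median 28.3) in hippocampus and from 94.2 to 1430.4 (median 388) in PFC (log2FC -3.38 ± 0.70 (SE), adjusted p = 0.00183), again with hippocampus 5-3 highest in its region. Without the 4 PFC libraries 6 of the 13 stayed called with a median of -2.17, among them Drd1 (adjusted p = 0.0148), Ppp1r1b (0.00429) and Penk (0.0422), while Drd2 (0.162) and Adora2a (0.0791) did not. Rbfox3, which encodes NeuN itself, was higher in the PFC (log2FC -1.04, adjusted p = 0.0261), and not without the 4 libraries (0.159) or with the animal as a block (0.167).

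Of 8 oligodendrocyte genes Mag (adjusted p = 0.0282) and Cldn11 (0.0303) were called higher in the PFC, and neither without PFC 9-4 (0.209 and 0.193). The median log2FC of the 8 was -1.39, and -0.23 without PFC 9-4. Of the 5 oligodendrocyte precursor, 8 astrocyte and 3 vascular genes tested, edgeR called 0, with 1, 2 and 0 at an unadjusted p under 0.05, and DESeq2 called 1 oligodendrocyte precursor gene higher in the PFC. The median log2FC was -1.07 over the oligodendrocyte precursor genes and 0.05 over the astrocyte genes, and without PFC 9-4 -0.45 and 0.48, with 1 astrocyte gene then called higher in the hippocampus. Of 9 microglial genes Aif1 was higher in the PFC (log2FC -2.79, adjusted p = 0.0261), and not with the animal as a block (0.221), and the median of the 9 was -1.29, or -0.26 without PFC 9-4.

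The counts of the receptor, channel and adhesion families that follow stand against 4.86% of all genes higher in the hippocampus and 8.18% higher in the PFC, and a share near these is not a result about the family. Among glutamate receptors, 1 of 9 AMPA and kainate subunits was higher in the hippocampus and 2 in the PFC, 1 of 6 NMDA subunits was higher in the hippocampus, and of 7 metabotropic receptors 1 was higher in the hippocampus and 2 in the PFC. Grik3, a kainate receptor subunit, ranged from 134 to 529.6 (median 202) in hippocampus and from 388 to 1547 (median 793) in PFC (log2FC -1.85 ± 0.27 (SE), adjusted p = 8.82e-05), and all 8 animals with both regions had more in the PFC. Grm4, a presynaptic group III metabotropic receptor, ranged from 7.23 to 155 (median 34.7) in hippocampus and from 72.3 to 999 (median 189.5) in PFC (log2FC -2.38 ± 0.48 (SE), adjusted p = 0.00147). Grm3, a group II receptor, ranged from 51.7 to 391 (median 114) in hippocampus and from 245 to 502 (median 312) in PFC (log2FC -1.40 ± 0.28 (SE), adjusted p = 0.00132). Gria2, the subunit that limits calcium entry through AMPA receptors, had a log2FC of 0.67 (adjusted p = 0.00505) and Grin2a, an NMDA receptor subunit, 1.12 (0.00472), and with the animal as a block neither was called (0.0786 and 0.148). Of 14 GABA receptor subunits 2 were higher in the hippocampus and 3 in the PFC, and 4 and 1 with library totals alone as the scaling. Gabrg3, a gamma subunit of GABA-A receptors, ranged from 195 to 1439 (median 436) in hippocampus and from 729 to 2907 (median 1474) in PFC (log2FC -1.63 ± 0.31 (SE), adjusted p = 9.18e-04). Gabrd, the extrasynaptic delta subunit, was called higher in the PFC (log2FC -1.11, adjusted p = 0.00798) but not without the 4 PFC libraries (0.236).

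Of 27 monoamine and acetylcholine receptors, 5 were higher in the hippocampus and 8 in the PFC (5 and 6 with library totals). Htr4, a Gs-coupled serotonin receptor, ranged from 36.0 to 268 (median 151) in hippocampus and from 5.51 to 60.7 (median 23.2) in PFC (log2FC 2.69 ± 0.33 (SE), adjusted p = 1.22e-05). Htr7, another Gs-coupled serotonin receptor, ranged from 8.56 to 33.6 (median 23.5) in hippocampus and from 1.17 to 16.2 (median 5.32) in PFC (log2FC 1.71 ± 0.34 (SE), adjusted p = 0.00132). The PFC side held the dopamine receptors Drd1 and Drd2 given above and Drd3, at 0 to 2.17 (median 0.53) and 0.369 to 39.1 (median 6.11) (log2FC -3.74 ± 0.94 (SE), adjusted p = 0.00791), which lost the call without the 4 PFC libraries (adjusted p = 0.229). Htr2a, a cortical Gq-coupled serotonin receptor, was not called, with 4.66 to 46.9 (median 16.6) in the hippocampus and 9.81 to 75.9 (median 38.4) in the PFC (adjusted p = 0.0799). Chrna7, the nicotinic alpha7 subunit, was higher in the hippocampus (log2FC 0.88, adjusted p = 0.00845), and not with the animal as a block (0.259).

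Of 19 neuropeptide and growth factor genes, 2 were higher in the hippocampus and 5 in the PFC (3 and 5 with library totals). Ntf3, neurotrophin-3, ranged from 5.00 to 71.5 (median 33.9) in hippocampus and from 0 to 7.07 (median 1.04) in PFC (log2FC 4.08 ± 0.68 (SE), adjusted p = 2.59e-04), in the same direction in all 8 animals with both regions. Bdnf, the brain-derived neurotrophic factor, ranged from 7.41 to 80.3 (median 48.1) in hippocampus and from 0.783 to 27.1 (median 12.5) in PFC (log2FC 2.04 ± 0.50 (SE), adjusted p = 0.0068). The members higher in the PFC were Npy, Sst, Tac1, Penk and Pdyn, and Tac1 had an adjusted p of 0.085 without the 4 PFC libraries. Of 14 steroid, retinoid and orphan nuclear receptors 2 were higher in the hippocampus, Nr3c2 among them, and 3 in the PFC (3 and 3 with library totals). Rxrg, a retinoid X receptor that is abundant in the striatum, ranged from 0 to 47.1 (median 3.71) in hippocampus and from 24.7 to 186 (median 61.4) in PFC (log2FC -3.50 ± 0.74 (SE), adjusted p = 0.00222). The glucocorticoid receptor Nr3c1 was not called (log2FC 0.23, adjusted p = 0.461).

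Of 40 potassium channel genes, 3 were higher in the hippocampus and 11 in the PFC, and 6 and 8 with library totals alone as the scaling. Kcnj3, the G-protein-gated channel GIRK1, ranged from 153 to 697 (median 393) in hippocampus and from 69.4 to 288 (median 152) in PFC (log2FC 1.32 ± 0.26 (SE), adjusted p = 0.00111). Kcnn2, the calcium-gated channel SK2, ranged from 217 to 415 (median 266) in hippocampus and from 87.9 to 206 (median 161) in PFC (log2FC 0.91 ± 0.17 (SE), adjusted p = 7.39e-04), and its libraries did not overlap between regions. On the PFC side, Kcnip3, a calcium-binding partner of A-type channels, ranged from 104 to 303 (median 149) in hippocampus and from 250.3 to 570.3 (median 343) in PFC (log2FC -1.33 ± 0.20 (SE), adjusted p = 8.75e-05). Kcnh4, an ether-a-go-go-like channel, ranged from 2.28 to 60.1 (median 20.1) in hippocampus and from 42.8 to 137 (median 87.4) in PFC (log2FC -2.03 ± 0.36 (SE), adjusted p = 4.71e-04). Hcn2, a pacemaker channel gated by cyclic nucleotides, ranged from 10.7 to 40.0 (median 22.1) in hippocampus and from 19.9 to 115 (median 55.6) in PFC (log2FC -1.56 ± 0.26 (SE), adjusted p = 2.78e-04). Of 23 sodium and calcium channel genes 3 were higher in the hippocampus and 6 in the PFC (5 and 5 with library totals). The auxiliary beta subunits of sodium channels went both ways. Scn3b ranged from 119 to 282 (median 185) in hippocampus and from 33.7 to 121 (median 91.0) in PFC (log2FC 1.25 ± 0.21 (SE), adjusted p = 2.44e-04). Scn4b, the subunit of resurgent sodium current that the striatum makes in abundance, ranged from 0 to 73.7 (median 6.89) in hippocampus and from 61.0 to 753 (median 202) in PFC (log2FC -4.53 ± 0.67 (SE), adjusted p = 8.98e-05).

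Of 16 Eph receptors and ephrins 5 were higher in the hippocampus, all of them EphA receptors, and 3 in the PFC, all of the B class. With library totals alone as the scaling, 6 were higher in the hippocampus and the 3 of the B class were no longer called. Epha7 ranged from 151 to 777 (median 501) in hippocampus and from 74.7 to 198 (median 133) in PFC (log2FC 1.89 ± 0.31 (SE), adjusted p = 1.96e-04), in the same direction in all 8 animals. Epha6 ranged from 339 to 2172 (median 1015) in hippocampus and from 190.3 to 597 (median 323) in PFC (log2FC 1.51 ± 0.27 (SE), adjusted p = 4.56e-04). Epha4, which also binds B-class ephrins, ranged from 201 to 620.0 (median 459) in hippocampus and from 101 to 305 (median 196) in PFC (log2FC 1.16 ± 0.20 (SE), adjusted p = 3.20e-04). Of the B class, Ephb1 (adjusted p = 0.029) and Efnb2 (0.012) lost the call without the 4 PFC libraries (0.301 and 0.106).

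Of 18 semaphorins, plexins and neuropilins 4 were higher in the hippocampus and 6 in the PFC, and 4 and 2 with library totals alone as the scaling. Both neuropilins, coreceptors of class 3 semaphorins, were higher in the hippocampus. Nrp1 ranged from 121 to 509 (median 299) in hippocampus and from 49.6 to 131 (median 90.9) in PFC (log2FC 1.78 ± 0.22 (SE), adjusted p = 1.38e-05). Nrp2 ranged from 36.1 to 169 (median 129) in hippocampus and from 31.2 to 72.3 (median 45.2) in PFC (log2FC 1.36 ± 0.20 (SE), adjusted p = 9.26e-05). The transmembrane class 5 semaphorins were opposed, with Sema5a at 66.9 to 954 (median 418) in the hippocampus and 46.8 to 175 (median 84.4) in the PFC (log2FC 2.11 ± 0.39 (SE), adjusted p = 5.89e-04) and Sema5b at 22.3 to 85.02 (median 32.9) and 77.2 to 214 (median 115) (log2FC -1.57 ± 0.25 (SE), adjusted p = 1.74e-04). Slit1, a repellent ligand of Robo receptors, ranged from 195 to 1017 (median 529) in hippocampus and from 39.9 to 276 (median 206) in PFC (log2FC 1.59 ± 0.28 (SE), adjusted p = 4.48e-04). Ntn1, netrin-1, was higher in the PFC (log2FC -2.35, adjusted p = 0.00968) but not without the 4 PFC libraries (0.206). Of 23 cadherins and protocadherins 6 were higher in each region (7 in the hippocampus and 5 in the PFC with library totals). Pcdh20, a protocadherin, ranged from 0.797 to 52.1 (median 29.6) in hippocampus and from 0 to 4.37 (median 0.743) in PFC (log2FC 4.36 ± 0.79 (SE), adjusted p = 5.17e-04). Cdh22, a classical cadherin, ranged from 6.56 to 45.5 (median 21.6) in hippocampus and from 36.5 to 179 (median 83.3) in PFC (log2FC -1.75 ± 0.31 (SE), adjusted p = 4.48e-04).

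Enzymes of cyclic nucleotide signalling were higher in the PFC in 7 of 15 members and in the hippocampus in 1. Adcy5, the main striatal adenylyl cyclase, ranged from 57.9 to 1376 (median 103) in hippocampus and from 267 to 3482 (median 1104) in PFC (log2FC -3.07 ± 0.58 (SE), adjusted p = 7.72e-04). Pde1b, a calmodulin-activated phosphodiesterase, ranged from 43.2 to 217 (median 61.1) in hippocampus and from 105 to 674 (median 332) in PFC (log2FC -2.39 ± 0.34 (SE), adjusted p = 5.58e-05). Pde4b, a cAMP-specific phosphodiesterase, ranged from 111 to 591 (median 264) in hippocampus and from 551 to 1758 (median 866) in PFC (log2FC -1.54 ± 0.24 (SE), adjusted p = 1.27e-04). Each of these 3 stayed called without the 4 PFC libraries (adjusted p = 0.0358, 0.00216 and 0.00272). Adcy1, the calmodulin-activated cyclase higher in the hippocampus, did not (0.0409 and 0.242). Most calcium-binding proteins of the list were not called, Calb1 among them, at 25.7 to 227 (median 69.5) and 29.0 to 205 (median 48.2) (adjusted p = 0.752). Hpcal4, a neuronal calcium sensor, was higher in the PFC (log2FC -1.19 ± 0.19 (SE), adjusted p = 1.96e-04).

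**Figure D4:**
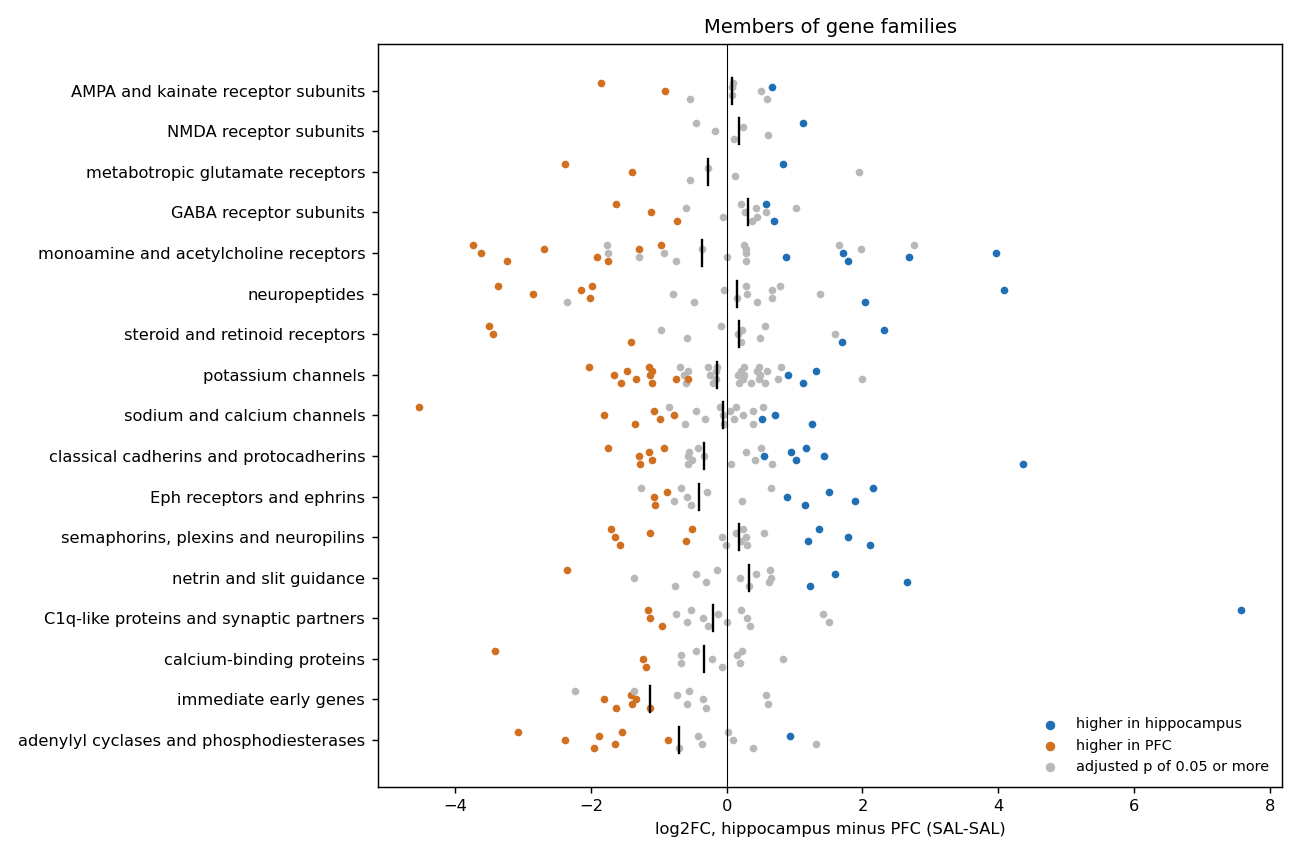
Region difference (x axis, log2FC of hippocampus over PFC) of each tested member of 17 gene families, with blue and orange for genes called higher in the hippocampus and in the PFC, grey for genes not called, and a black line at the family median. Immediate early genes lie mostly left of 0, and every EphA member called lies right of it.

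Some of the genes described lost their call under further settings. Scaling by library totals alone ended the calls of Aif1 (0.0597), Arc (0.136), Efnb2 (0.095), Egr1 (0.07), Egr4 (0.0574), Ephb1 (0.0645), Gabrd (0.0714), Gad2 (0.0548), Mag (0.0519), Necab2 (0.0982), Otof (0.0576), Pou3f2 (0.0539), Rbfox3 (0.0583) and Tle4 (0.102), each with its adjusted p. The animal as a block ended those of Adcy1 (0.071), Cldn11 (0.744), Drd3 (0.167), Efnb2 (0.0734), Gabrd (0.111), Gad2 (0.0672), Mag (0.443), Pcp4 (0.145), Pdyn (0.0835) and Pou3f2 (0.576). Egr1, taken up next, was also not called without the 4 PFC libraries (0.0716).

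Immediate early genes, which are transcribed within minutes of synaptic activity, were higher in the PFC in 6 of 15 members (background 8.18%), with a median log2FC of -1.13. With library totals alone as the scaling 3 of the 15 were called and with the animal as a block 2. Npas4, an activity-dependent bHLH-PAS factor, ranged from 0.0951 to 28.2 (median 12.0) in hippocampus and from 4.96 to 90.4 (median 44.5) in PFC (log2FC -1.81 ± 0.47 (SE), adjusted p = 0.0103), with more in the PFC in all 8 animals with both regions. The same held for Nr4a1 and Egr3, while Btg2, a member not called, had more in the hippocampus in all 8. Nr4a1, an orphan nuclear receptor, ranged from 27.6 to 161 (median 56.3) in hippocampus and from 75.3 to 272 (median 200.1) in PFC (log2FC -1.41 ± 0.29 (SE), adjusted p = 0.00165). Npas4 and Nr4a1 remained called without the 4 PFC libraries and with the animal as a block. Egr3 ranged from 4.85 to 20.2 (median 8.50) in hippocampus and from 9.34 to 52.2 (median 20.7) in PFC (log2FC -1.39 ± 0.30 (SE), adjusted p = 0.00264). Arc, a regulator of AMPA receptor trafficking, ranged from 21.3 to 261 (median 66.8) in hippocampus and from 65.3 to 295 (median 121) in PFC (log2FC -1.14 ± 0.35 (SE), adjusted p = 0.0292). Egr3, Egr4, Arc and Egr1 were not called with the animal as a block (adjusted p = 0.111, 0.166, 0.099 and 0.0897). Fos, the most widely used member, was at 0.142 to 73.7 (median 10.3) and 0.553 to 54.6 (median 15.4) (log2FC -0.31 ± 0.65 (SE), adjusted p = 0.816), and with the animal as a block its log2FC was 0.48 (adjusted p = 0.711). Every animal of both groups received a saline injection 2 h before tissue was taken, and a level without injection was not measured.

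The promoters of the called immediate early genes were searched, on both strands, for the cAMP response element (CRE) TGACGTCA, for its core TGACG, counted also inside a full element, and for the CArG box that binds serum response factor, since these elements are known routes from synaptic activity to transcription. Promoters from RefSeq on GRCm38.p6, from 250 bases before to 50 after the start site, were read for Npas4, Nr4a1 and Egr4, and those of Egr1, Egr3 and Arc were not analysed here. In 32851 promoters of the table, 1.79% held the full CRE, 20.8% its core and 1.63% a CArG box. Neither the full CRE nor a CArG box was found in the 3 windows, and the core occurred 4 times in Nr4a1 (chr15:101266596-101266895, plus strand), 2 times in Npas4 (chr19:4989922-4990221, minus strand) and 2 times in Egr4 (chr6:85513540-85513839, minus strand). Of the members not called, Btg2 and Dusp1 held a full CRE and Egr2 a CArG box in some of its windows, and Fos, shown as the most widely used member, held the core 2 times (chr12:85473640-85473939, plus strand). The core also occurred in Btg2, Dusp1, Fosb, Junb and some Egr2 windows, and not in Jun or Fosl2, so it was not particular to the called genes. The called genes and Fos are printed 5′ to 3′ on the strand of the gene, with the core of the CRE on either strand in capitals.
Npas4: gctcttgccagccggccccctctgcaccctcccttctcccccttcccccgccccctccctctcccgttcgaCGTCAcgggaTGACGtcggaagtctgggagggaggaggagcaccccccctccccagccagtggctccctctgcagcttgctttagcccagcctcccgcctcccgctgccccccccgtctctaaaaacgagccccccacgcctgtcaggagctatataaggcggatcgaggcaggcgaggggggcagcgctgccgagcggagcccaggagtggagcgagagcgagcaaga
Nr4a1: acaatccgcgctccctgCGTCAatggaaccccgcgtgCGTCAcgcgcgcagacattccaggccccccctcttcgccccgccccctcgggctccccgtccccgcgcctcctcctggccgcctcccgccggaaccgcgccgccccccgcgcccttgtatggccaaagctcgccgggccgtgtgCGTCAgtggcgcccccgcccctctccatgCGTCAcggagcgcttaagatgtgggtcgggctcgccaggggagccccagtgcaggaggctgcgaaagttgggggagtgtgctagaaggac
Egr4: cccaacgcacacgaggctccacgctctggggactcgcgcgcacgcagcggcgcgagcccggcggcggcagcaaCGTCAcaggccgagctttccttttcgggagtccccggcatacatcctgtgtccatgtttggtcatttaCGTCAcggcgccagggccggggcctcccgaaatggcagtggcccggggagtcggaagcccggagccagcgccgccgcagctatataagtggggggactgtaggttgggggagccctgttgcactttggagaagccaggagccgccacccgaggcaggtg
Fos: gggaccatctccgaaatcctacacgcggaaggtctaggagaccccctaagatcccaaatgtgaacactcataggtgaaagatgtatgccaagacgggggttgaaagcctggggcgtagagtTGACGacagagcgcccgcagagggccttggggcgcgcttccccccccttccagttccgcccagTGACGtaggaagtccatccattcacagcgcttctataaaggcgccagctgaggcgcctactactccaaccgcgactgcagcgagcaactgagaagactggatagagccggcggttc

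The same comparison was run in the 3 other conditions of the study, which hold other animals: perinatal morphine with adult saline (MOR–SAL, 11 hippocampal and 12 PFC libraries), perinatal saline with adult lipopolysaccharide (SAL–LPS, 14 and 9) and both (MOR–LPS, 15 and 14). Of the genes tested, 12.2% were higher in the hippocampus and 13.6% in the PFC in MOR–SAL, 4.72% and 6.63% in SAL–LPS, and 7.98% and 12.8% in MOR–LPS. Of the 683 SAL–SAL genes higher in the hippocampus, 519 (76% of them and 30.2% of the MOR–SAL list) were called the same way in MOR–SAL, 299 (43.8% and 45.1%) in SAL–LPS and 464 (67.9% and 41.4%) in MOR–LPS. Of the 1149 higher in the PFC, 916 (79.7% and 47.9%) were called the same way in MOR–SAL, 514 (44.7% and 55.2%) in SAL–LPS and 871 (75.8% and 48.5%) in MOR–LPS. In all 4 conditions 679 of the 1832 genes were called the same way, 243 higher in the hippocampus and 436 in the PFC.

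Tanc1 had a log2FC of 3.43 ± 0.21 (SE, adjusted p = 1.22e-11) in MOR–SAL, 2.98 ± 0.51 (5.08e-04) in SAL–LPS and 2.68 ± 0.19 (1.95e-11) in MOR–LPS. Prox1 had 3.22 ± 0.43 (SE, adjusted p = 4.06e-06) in MOR–SAL, 3.41 ± 0.63 (0.00102) in SAL–LPS and 3.21 ± 0.39 (3.77e-07) in MOR–LPS. Syt6 had -3.46 ± 0.43 (SE, adjusted p = 1.27e-06) in MOR–SAL, -2.22 ± 0.53 (0.00727) in SAL–LPS and -2.31 ± 0.37 (2.46e-05) in MOR–LPS. Dentate granule cell markers were called higher in the hippocampus in 9, 8 and 9 of 10 members in these 3 conditions. Medium spiny neuron markers were called higher in the PFC in 12, 3 and 13 of 13, and Drd1 had -3.18 ± 0.43 (SE, adjusted p = 4.01e-06) in MOR–SAL, -1.57 ± 0.67 (0.132) in SAL–LPS and -3.39 ± 0.44 (9.96e-07) in MOR–LPS. The summed medium spiny neuron markers of the PFC libraries ranged from 1253 to 8244 in MOR–SAL, 2823 to 10680 in SAL–LPS and 1627 to 7677 in MOR–LPS. In the hippocampal libraries they ranged from 389 to 1233 (median 600) in MOR–SAL, 413 to 6735 (median 1178) in SAL–LPS and 339 to 2073 (median 1030) in MOR–LPS, and their part in the counts was not tested.

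Of the 15 immediate early genes, 4, 4 and 2 were called higher in the PFC in the same 3 conditions and 1, 0 and 1 in the hippocampus. Npas4 had a log2FC of -1.83 ± 0.45 (SE, adjusted p = 0.00355) in MOR–SAL, -1.34 ± 0.45 (0.05) in SAL–LPS and -1.54 ± 0.32 (5.86e-04) in MOR–LPS. Arc had -0.59 ± 0.35 (SE, adjusted p = 0.226) in MOR–SAL, -0.03 ± 0.41 (0.973) in SAL–LPS and 0.10 ± 0.34 (0.868) in MOR–LPS. Whether the region difference itself changed with the condition was tested over all 98 libraries of both regions. For Arc the change was not called (adjusted p = 0.878 over the 3 terms), nor for Npas4 (0.999). Over all genes the 3 terms together called 1 gene (796 at an unadjusted p under 0.05), the MOR–SAL term 0 (548), the SAL–LPS term 9 (1069) and the MOR–LPS term 0 (504) with edgeR. The test of region by sex in SAL–SAL called 0 genes, with 360 at an unadjusted p under 0.05.

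**Figure D5:**
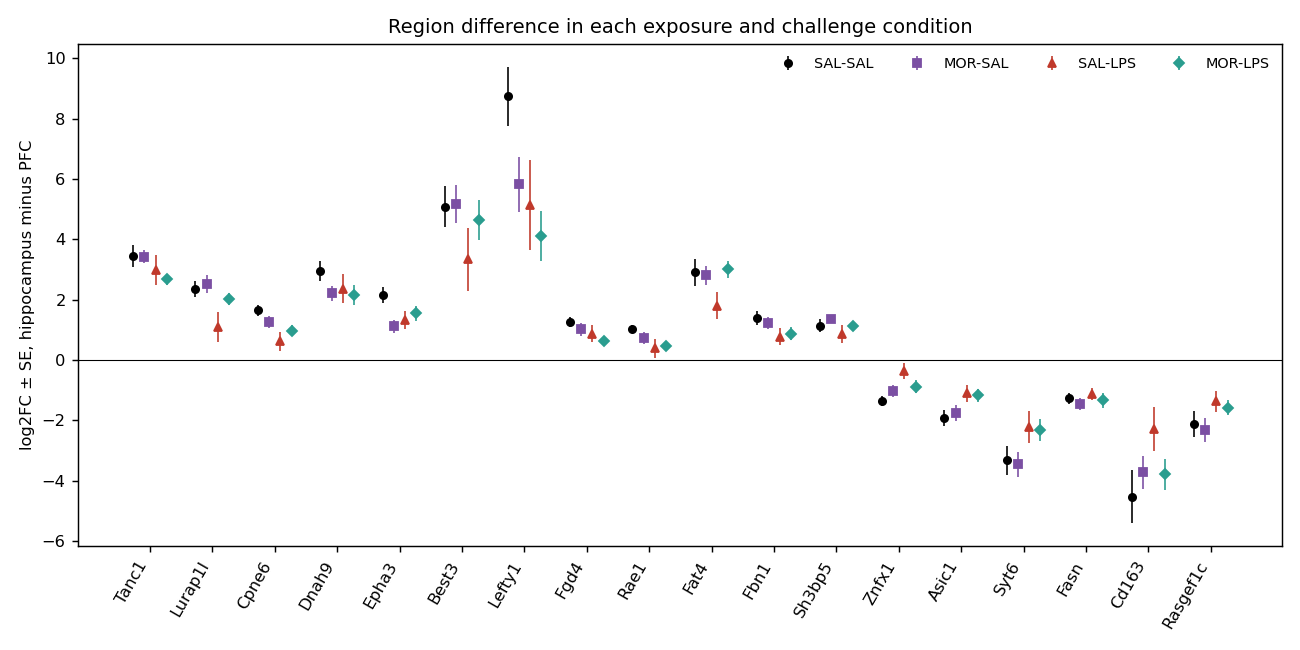
Region difference (log2FC ± SE, hippocampus over PFC) of the 18 named genes in the 4 conditions, 1 symbol per condition. Tanc1 lies between 2.68 and 3.46 in all 4.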

How the data were processed

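NeuN+ nuclei were sequenced from 208 samples, of which 23 entered the SAL–SAL comparison, and each region had a table of raw counts. The counts per gene were made by the authors with Trim Galore 0.6.7, the mm10 genome and STAR 2.7.10a with GENCODE vM25, checked with HTSeq 0.12.4, and deposited without normalization. The strand setting is not given in the sources used here. The authors' own tests used DESeq2 1.40.2 with sex and condition.

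The tables were joined on gene symbol, and genes whose mean CPM reached 1 were tested with edgeR 4.0.16 in R 4.3.3 (TMM scaling, quasi-likelihood F test, region plus sex, Benjamini-Hochberg adjustment, threshold 0.05). Alternatives were DESeq2 1.42.0, limma 3.58.1 with correlated animals or litters, other scalings and filters, the animal as a block, each sex alone, and fits without libraries that stood apart, the last chosen after seeing the data. Sample numbers name the litter and the individual in the study's sample table, so same-numbered libraries were taken as 1 animal. The deviations of the 8 pairs from their group means correlated at -0.0524 to 0.0969 (median 0.00829, other pairs -0.00635), and in 1 of 8 the own number was the best match. Libraries of a group came from separate animals, some of them littermates. In simulated counts with 14040 genes and 100 changed genes per size, edgeR recovered 22% of those set at a log2FC of 1 and 67% at 2 in this comparison. A coefficient's SE was its size divided by the root of F.

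The named genes were up to 12 per direction with the smallest adjusted p among called genes with an absolute log2FC of at least 1 and no overlap between the libraries of both regions, leaving out predicted gene models, plus members of the gene lists. The members and lists were chosen with earlier results of these data known. Of the 157 genes that could be named, 62 overlap a gene on the opposite strand in GENCODE M21, and 7 of the 18 picked by the rule. A count of 0 over the 10 PFC libraries allows 0.0316 normalized CPM (3 counts), counting error only. Columns of per-sample values that matched no sample numbered 0.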

Additional observations from a re-analysis of the deposited data

Results flagged for a closer look

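A library far from the others of its group was looked for in 38 sets of PFC values, and 8 were marked, where chance marks about 1 in 20. The measure was the gap to the nearest library divided by the range of the group. PFC 9-4 stood above the other 9 libraries in 4 summed glial marker lists: oligodendrocytes at 5030 against 800.4 for the next library (0.866 of the range), microglia at 305.4 against 57.12 (0.853), oligodendrocyte precursors at 148.7 against 31.25 (0.792) and astrocytes at 1438 against 988.9 (0.545). PFC 5-1 stood apart in the summed layer 5 markers, at 3548 against 1514 (0.716), a list that holds Bcl11b, a gene medium spiny neurons also express. PFC 5-1 was also highest for Syt6, at 512.1 against 325.1 (0.515), and Asic1, at 269.6 against 152.6 (0.552), and lowest for Sh3bp5, at 15.32 against 55.01 (0.543). All 3 genes stayed called without PFC 4-1, 4-3, 5-1 and 9-0.

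The difference between the regions changed with the condition in 9 genes, by the edgeR test of the SAL–LPS term against SAL–SAL over 98 libraries. The log2FC of hippocampus over PFC was higher in SAL–LPS for Gm26621 by 7.39 (adjusted p = 0.0311), for Gm21984 by 5.595 (0.00484), for Col4a4, a basement membrane collagen chain, by 4.23 (0.0351) and for Fgfr2, a fibroblast growth factor receptor, by 2.75 (0.0351). The change in log2FC was negative for Cdk5rap3, at -1.88 (0.0351), the splicing factor Srsf6, at -1.85 (0.00484), the desmosomal Pkp2, at -1.69 (0.0351), the kinase Stk25, at -1.29 (0.0311), and Agpat6, at -0.98 (0.0351). Over the 3 condition terms together, Gm21984 was the gene called (adjusted p = 0.0474).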

How the results depend on the processing

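Against 1832 called genes (683 higher in the hippocampus, 1149 in the PFC, 1059 with at least 2-fold), DESeq2 called 1077 higher in the hippocampus, scaling by library totals left 536 higher in the PFC, correlated litters gave 1064 higher in the hippocampus, and leaving out all 7 libraries that stood apart gave 1066 higher in the hippocampus. Females alone gave 908 genes (266 higher in the hippocampus, 642 in the PFC), and males alone, with 7 and 4 libraries, gave 95 (62 and 33, all 95 at least 2-fold). With the animal as a replicate block, 573 were called (193 and 380, 527 of them at least 2-fold), over 16 libraries and with a median log2FC over all genes of 0.262. For region by condition, library totals alone called 2 genes in place of 1. All 1832 genes kept their direction in each alternative that tested them, and 55.6% were still called without PFC 4-1, 4-3, 5-1 and 9-0, 65.4% with library totals, 43.7% in females alone, 29.7% with the animal as a block and 5.02% in males alone. Over 157 genes and all alternatives, 2493 of 2818 values stayed on their side of the threshold, 315 lost the call, 10 gained it and 0 called values reversed. Genes not called could change sign, as did Slc17a7, Tbr1 and Fos with the animal as a block (log2FC 0.73, 0.13 and 0.48 against -0.60, -1.32 and -0.31). Fewer libraries enter the block, sex and left-out fits, and other causes of lost calls were not tested. Depth limits genes of few counts, such as Cd163, Lefty1 and Best3, and an unlabelled batch was not tested.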

Other observations

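Synaptic organizers and some broader lists showed values that fall outside the comparisons above. Of 16 C1q-like proteins and synaptic partners 1, C1ql2, was higher in the hippocampus and 3 in the PFC. Nlgn2, the neuroligin of inhibitory synapses, ranged from 23.9 to 61.4 (median 27.9) in the hippocampus and from 22.6 to 147 (median 78.3) in the PFC (log2FC -1.13 ± 0.26 (SE), adjusted p = 0.00482). Nrxn2, a presynaptic neurexin, ranged from 84.5 to 227 (median 138) and from 115 to 438 (median 269) (log2FC -0.95 ± 0.22 (SE), adjusted p = 0.00392). With the animal as a block Nlgn2 had an adjusted p of 0.159 and Nrxn2 of 0.0561. Nlgn1 (log2FC -0.27, adjusted p = 0.59) was not called. Of 15 netrin and slit genes 3 were higher in the hippocampus and 1 in the PFC, and of 12 calcium-binding proteins 3 were higher in the PFC.

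Of 13 cortical projection factors 2 were higher in the hippocampus and 1 in the PFC. Neurod6, a bHLH factor of forebrain pyramidal neurons, ranged from 16.6 to 143 (median 30.6) in the hippocampus and from 0 to 20.7 (median 5.32) in the PFC (log2FC 2.48 ± 0.61 (SE), adjusted p = 0.00695). Lmo4, a LIM-domain factor, was the member higher in the PFC (log2FC -0.96 ± 0.19 (SE), adjusted p = 0.00109), and its adjusted p was 0.102 with the animal as a block. Of 7 glutamatergic genes 2 were higher in the hippocampus, Slc17a6 and Camk2a, the latter with an adjusted p of 0.241 with the animal as a block. Of 7 general neuronal genes Rbfox3 and Eno2 were higher in the PFC, the latter with 40.4 to 235 (median 106) in the hippocampus and 72.1 to 496 (median 264) in the PFC (log2FC -1.38 ± 0.28 (SE), adjusted p = 0.00138). Of 3 choroid plexus genes Ttr and Kl were higher in the hippocampus and Clic6 in the PFC. Kl had an adjusted p of 0.167 with the animal as a block, and Clic6 of 0.0984 with that block, 0.0596 with library totals as the scaling and 0.338 without the 4 PFC libraries. Both subiculum genes tested, Fn1 (log2FC 2.77, adjusted p = 0.147) and Nts (log2FC -0.48, adjusted p = 0.868), were not called.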
